A study of Rattus norvegicus with 3 samples.

Results

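The neurotrophins Bdnf and Ntf3, their receptors Ntrk2, Ntrk3 and Ngfr, and the neurite growth protein Nrn1 were examined in single neuronal cell bodies. Each of 3 Affymetrix rat arrays carried amplified RNA from 1 soma that had been dissected by glass pipette. The labels describe hippocampal pyramidal neurons of Sprague-Dawley rats, taken at embryonic day 19 and then kept for 14 days, untreated, in dispersed primary culture. The somata formed 1 group with no control, and cells 1, 2 and 3 below carry the replicate numbers of the labels. The labels name neither an animal nor a dish for a cell, so no p-value was computed and each SD is the spread over 3 cells, in which cell and amplification cannot be told apart. Members were all probe sets whose only gene symbol was one of the 6 genes. This gave 11 of the 31099 probe sets on the array, with 3 for the ligands, 7 for the receptors and 1 for neuritin.

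Neurotrophins are secreted growth factors that support the survival of neurons, the growth of their processes and the strength of their synapses. They are made as precursors that proteases cut, and the mature forms bind Trk receptor tyrosine kinases, which signal through the MAP kinase, PI3 kinase and phospholipase C pathways. All neurotrophins and their precursors also bind the p75 receptor, which is encoded by Ngfr. In the hippocampus, activity induces Bdnf, and Nrn1 encodes neuritin, a membrane-anchored protein that activity and neurotrophins induce.

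The arrays were not alike, and this touches every difference between cells below. Over 14218 genes, Pearson's r reached 0.676 for cells 2 and 3, but 0.474 for cells 1 and 2 and 0.439 for cells 1 and 3. The 3' end of the control gene Gapdh exceeded its 5' end by 0.20 log2 in cell 1, 3.06 in cell 2 and 2.93 in cell 3. Markers of pyramidal neurons had a median percentile of 55.3, 74.4 and 85.3 in cells 1, 2 and 3 (13 genes), and markers of neurons in general 80.9, 84.8 and 89.9 (18 genes). The microtubule proteins Stmn4 and Mapt and Neurod2, a factor of glutamatergic neurons on the pyramidal list, ranked in the top 5% of every cell. At the lower end of the general list, Map2 lay at 28.7, 17.7 and 67.5, Syt1 at 31.9, 24.7 and 7.08, and Uchl1 at 10.6, 11.7 and 23.9. These were under background in every cell. The vesicular glutamate transporter Slc17a7 lay at 55.3, 51.2 and 51.2 and the kinase subunit Camk2a at 26.5, 19.6 and 26.2, so these defining markers did not read high. Other markers of pyramidal neurons went both ways. Nrgn, the gene of neurogranin, lay at 94.8, 99.4 and 98.8, above background in every cell. Camk2b lay at 85.9, 76.2 and 90.9, above background in cell 3 only. The glutamate receptor gene Gria1 lay at 72.7, 89.6 and 85.3, under background in every cell. Lower on the list, Tbr1 lay at 2.12, 14.6 and 23.9, Emx1 at 49.7, 25.7 and 40.3, and Slc17a6 at 14.1, 29.0 and 94.7.

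Few member probe sets read clearly above background. Background was the 95th percentile of 119 genes that neurons are not known to use, such as olfactory receptors, milk proteins and digestive enzymes, and it lay at 9.62, 10.25 and 9.47 log2 in cells 1, 2 and 3. In cell 1 it was passed by 1 of the 11 member probe sets, against 9.58% of the 20832 probe sets with a single symbol. In cell 2 it was passed by 0, against 6.34%. In cell 3 it was passed by 3, one each of Bdnf, Ntrk3 and Nrn1, against 12.6%. With so few members these shares are near those of the array as a whole, and a probe set under this line is not shown to be without transcript. No member probe set passed the line in more than 1 cell, against 6.38% of all single-symbol probe sets, which for 11 probe sets is not a contrast. Under each of the 3 other backgrounds tried, which lay between 8.68 and 9.47 log2 in cell 2, Bdnf probe set 1368677_at passed in both cells 2 and 3. Those lower lines were passed by between 11.6% and 20.02% of single-symbol probe sets in cell 2. In cell 3 the shares lay between 15.6% and 15.9%.

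**Figure D1:**
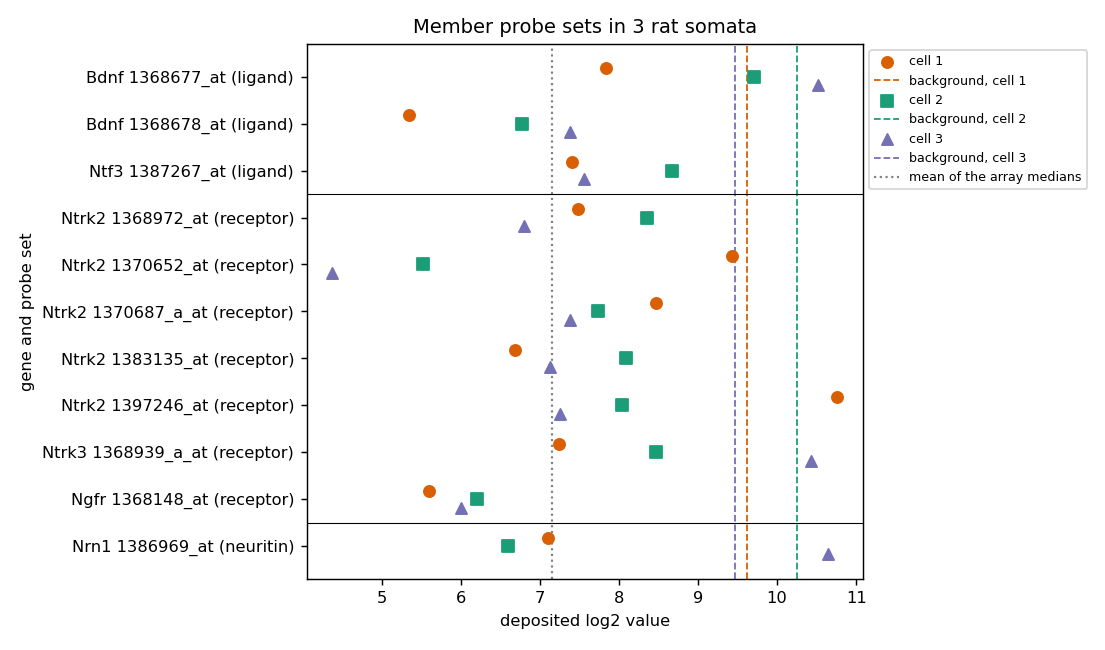
Deposited log2 value (horizontal axis) of each of the 11 member probe sets (vertical axis) by cell (circles for cell 1, squares for cell 2, triangles for cell 3), with the background of each cell as a dashed line and the mean of the array medians as a dotted line. Bdnf, Ntrk3 and Nrn1 passed background in cell 3 and an Ntrk2 probe set in cell 1.

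Bdnf, the brain-derived neurotrophic factor and main ligand of TrkB, read lowest in cell 1 and highest in cell 3 on both of its probe sets. Probe set 1368677_at read 7.84, 9.71 and 10.52 log2 in cells 1, 2 and 3, with a mean of 9.36 ± 1.37 (SD, n = 3 cells). Probe set 1368678_at read 5.35, 6.77 and 7.38 log2, with a mean of 6.50 ± 1.04. The probe sets stood at different heights but moved alike. After quantile normalisation, which gives the arrays the same distribution, cell 2 exceeded cell 1 by 1.93 and 1.56 log2 on the first and second probe set. Cell 3 exceeded cell 2 by 0.65 and 0.66 log2. The step between cells 1 and 2 was larger than the median difference of all single-symbol probe sets between these cells, which was 1.01 log2 without regard to sign, and the step between cells 2 and 3 was smaller than theirs, 0.80 log2. Of 3060 genes with exactly 2 probe sets, 6.31% had both lowest in cell 1 and highest in cell 3. This order was noticed in the Bdnf values and is a description.

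Transcription of Bdnf starts at several alternative promoters, which join to a shared coding exon, and array values do not say which start was used. RefSeq (build GRCr8) gave 6 start windows for Bdnf and 3 for Ntf3, each with 250 bases before and 50 after a start. They were searched on both strands for the cAMP response element TGACGTCA, which the factor CREB binds, for its half-site TGACG, which the full element contains, and for the E-box CACGTG, to which USF factors bind. The full element was in none of the 9 windows, against 1.83% of 33465 windows of all genes. The half-site was in 1 Bdnf window, against 21.2% of all windows, and the E-box in another, against 6.42%. No window of Ntf3 held any of them. The matches are shown because the regulators that bind such elements were also measured, with the motif in capitals and the plus strand of chromosome 3 throughout.
Bdnf half-site (reverse strand), chr3:116637813-116637837: tgacagctcaCGTCAaggcagcgtg
Bdnf E-box, chr3:116620844-116620869: aagccatccgCACGTGacaaaacgta
A match of letters is a description and does not show that a factor was bound. The half-site began 35 bases before a start and is written as its reverse complement CGTCA. Creb1, the gene of CREB, lay at percentiles of 17.3, 10.5 and 11.4 in cells 1, 2 and 3. Usf1, which encodes a USF factor, lay at 85.6, 87.0 and 85.5, and Usf2, which encodes another, at 49.5, 40.2 and 82.6. All of these genes were under background in every cell, and a relation of any of them to the Bdnf values was not tested.

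Ntf3, the neurotrophin-3 gene, whose product binds TrkC best, read highest in cell 2. Its 1 probe set read 7.41, 8.68 and 7.56 log2 in cells 1, 2 and 3, with a mean of 7.88 ± 0.69 (SD, n = 3 cells), and was under background in each. After quantile normalisation the difference of cell 3 minus cell 2 was -1.06 log2, whereas both Bdnf probe sets were higher in cell 3. The ligands thus shared the step between cells 1 and 2, where Ntf3 differed by 1.33 log2, and differed in direction between cells 2 and 3. The first step was not particular to ligands. Ntrk3 and Ngfr were also higher in cell 2 than in cell 1, by 1.29 and 0.76 log2. Ntrk2 probe sets went both ways, and Nrn1 differed by -0.42 log2. The SD of Ntf3 over the cells was larger than that of 44.5% of genes, and that of Bdnf larger than that of 77.5%.

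Ntrk2, the gene of the BDNF receptor TrkB, had 5 probe sets that gave different readings. Alternative splicing makes full-length TrkB, which carries a kinase domain, and truncated forms, which lack it and are abundant in astrocytes. Which form each probe set detects was not analysed here. Probe set 1397246_at read 10.76, 8.04 and 7.26 log2 in cells 1, 2 and 3, and was the member farthest above background in cell 1. Probe set 1370652_at read 9.42, 5.52 and 4.37 log2, a range wider than that of 98.2% of single-symbol probe sets, and was under background in each cell. Probe set 1370687_a_at read 8.46, 7.74 and 7.38 log2. These 3 were highest in cell 1 and lowest in cell 3. The other two were highest in cell 2, with 7.49, 8.35 and 6.80 log2 for 1368972_at and 6.68, 8.09 and 7.13 log2 for 1383135_at.

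The Ntrk2 probe sets had the same direction between the cells that resembled each other most. All 5 were lower in cell 3 than in cell 2, with differences from -0.31 log2 for 1370687_a_at to -1.47 log2 for 1368972_at. In both of these cells all 5 were under background, which limits what the shared direction says. Of 104 genes with exactly 5 probe sets, 3.85% had all of them lower in cell 3 and 5.77% all of them higher. Between cells 1 and 2 the same probe sets split, with 2 higher in cell 2 and 3 lower, so the direction of Ntrk2 against cell 1 depends on the probe set. Within an array they spanned 4.30, 2.81 and 2.97 log2 in cells 1, 2 and 3, where the median span of such genes was 3.70, 3.69 and 3.65 log2. The span of Ntrk2 levels within an array was therefore of the usual size. It does not measure the split in direction between cells 1 and 2.

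The list of microglial markers had its highest median in cell 1, where the 3 Ntrk2 probe sets were also highest. The oligodendrocyte list fell in the same order over the cells, and the astrocyte list did so in its summed level only. Of 12 microglial genes 4 passed background in cell 1 (Csf1r, C1qc, Itgam and Tyrobp), against 7.64% of all genes, and 0 in cells 2 and 3. After quantile normalisation 7 of the 12 were highest in cell 1, against 31.6% of all named genes, 3 in cell 2 and 2 in cell 3. Cx3cr1 (17.2, 68.3 and 75.8), C1qb, P2ry12 and Aif1 had their lowest percentile in cell 1. The median percentile of the 12 genes was 70.8, 51.6 and 31.4 in cells 1, 2 and 3, and their summed level was 99.2, 86.3 and 79.5 log2. Of 12 astrocyte genes 2 passed it in cell 1 (S100b and Gja1) and 0 in the others, with a summed level of 91.0, 85.5 and 81.5 log2. The astrocyte median percentile of 41.3, 49.7 and 42.4 was nevertheless lowest in cell 1, and 5 of the genes were highest in cell 1 and 5 in cell 2. The astrocyte water channel Aqp4 lay at percentiles of 80.0, 8.95 and 4.44, the filament protein Gfap at 14.9, 68.0 and 47.8, and the glutamate transporter Slc1a3 at 77.3, 77.4 and 85.8. Lists of oligodendrocytes (61.8, 59.5 and 52.5, 12 genes), interneurons (57.3, 70.1 and 36.7, 11 genes) and vascular cells and fibroblasts (51.0, 57.7 and 36.0, 13 genes) had medians that were lowest in cell 3, and those of interneurons and of vascular cells and fibroblasts were highest in cell 2, and Vwf, an endothelial clotting factor, ranked in the top 5% of every cell. The part of these markers in the Ntrk2 values was not tested. With 1 cell per reading, more RNA of another cell type and more RNA of a gene in the same cell cannot be told apart.

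Ntrk3, the gene of the NT-3 receptor TrkC, had the same order over the cells as Bdnf. Its 1 probe set read 7.25, 8.47 and 10.42 log2 in cells 1, 2 and 3, with a mean of 8.71 ± 1.60 (SD, n = 3 cells), and passed background in cell 3. Cell 3 exceeded cell 2 by 1.82 log2 after quantile normalisation, opposite in sign to all Ntrk2 probe sets. The identifier of this probe set marks it as one that can match several transcripts of a gene. Its range over the cells was wider than that of 85.7% of single-symbol probe sets.

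Ngfr, the gene of the p75 receptor, read low. Its 1 probe set read 5.60, 6.20 and 6.00 log2, with a mean of 5.93 ± 0.31 (SD, n = 3 cells), more than 3 log2 under background in each cell. Its percentile of 10.6, 23.6 and 21.0 was below the median of the silent genes, 34.4, 38.6 and 30.7. Its SD after quantile normalisation was 0.41 log2, which at such a low reading does not show that the gene was steady.

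Nrn1 (neuritin) was the member gene that differed most between cells. Its 1 probe set read 7.11, 6.59 and 10.65 log2 in cells 1, 2 and 3, with a mean of 8.12 ± 2.21 (SD, n = 3 cells). Cell 3 exceeded cell 2 by 3.89 log2 and cell 1 by 3.47 log2 after quantile normalisation, while the difference of cell 2 minus cell 1 was -0.42 log2. The percentile was 95.9 in cell 3, against 32.7 in cell 2 and 45.4 in cell 1. The SD of Nrn1 exceeded that of 96.0% of genes. Its relative Nrn1l showed another order, with percentiles of 82.4, 48.2 and 9.42.

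**Figure D2:**
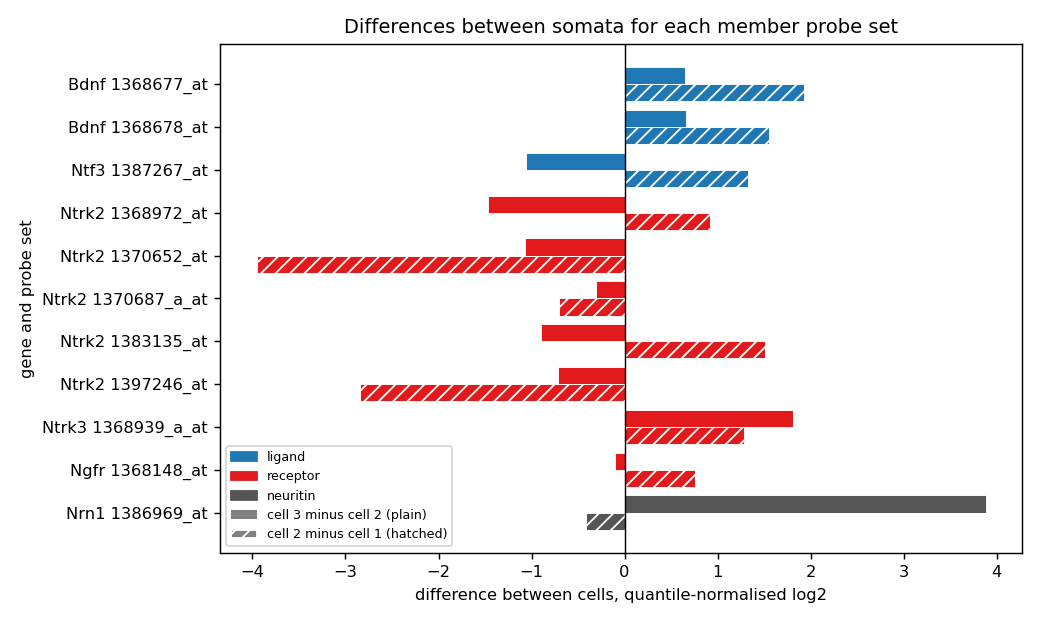
Difference in quantile-normalised log2 (horizontal axis) between cells 3 and 2 (plain bars) and between cells 2 and 1 (hatched bars) for each member probe set (vertical axis), with ligands in blue, receptors in red and neuritin in grey. Bars of both Bdnf probe sets and of Ntrk3 point to higher values for both steps, whereas all 5 Ntrk2 probe sets were lower in cell 3 than in cell 2.

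Ligands were then set against receptors within each array. A percentile reflects probe affinity besides the amount of RNA. It gives the place of a gene on the array and not its abundance relative to another gene. Where a gene had several probe sets its value was their median. Bdnf had a mean percentile of 63.3 ± 28.8 and Ntf3 of 65.5 ± 14.6, against 66.0 ± 15.9 for Ntrk2, 74.4 ± 23.2 for Ntrk3 and 18.4 ± 6.93 for Ngfr (SD, n = 3 cells each). The order of the means was Ntrk3, Ntrk2, Ntf3, Bdnf, Nrn1 (58.0 ± 33.4) and Ngfr. When each gene took its brightest probe set the order changed, and Bdnf (79.1 ± 17.8) came first, ahead of Ntrk3 (68.2 ± 24.1), Ntrk2 (67.2 ± 25.7) and Ntf3 (57.8 ± 14.3). With medians, each neighbouring pair among the upper 5 differed by less than the SD of either gene, and Ngfr was below every other member in every cell.

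Averaged over the genes of a role, ligands lay at percentiles of 42.6, 78.3 and 72.4 in cells 1, 2 and 3 and receptors at 46.4, 57.6 and 54.8. The difference of ligands minus receptors was -3.79 percentile points in cell 1, 20.7 in cell 2 and 17.6 in cell 3. Its mean of 11.5 ± 13.3 (SD, n = 3 cells) was smaller than the spread between cells. In quantile-normalised log2 it was 0.39 ± 0.50. Without cell 1 the percentile difference was 19.1 ± 2.24 (SD, n = 2 cells). It was also larger than its SD with the brightest probe set per gene (17.8 ± 13.02), with percentiles over all probe sets (11.1 ± 9.04) and without probe sets that can match several transcripts (22.7 ± 22.0), where Ntrk3 has none left. It was smaller than its SD with the mean of probe sets per gene (14.3 ± 16.4), without cell 2 (6.89 ± 15.1) and without cell 3 (8.47 ± 17.3). The sign rested on Ngfr: against the Trk receptors alone the ligands lay lower, by a mean difference of -5.76 ± 13.9 percentile points and -0.39 ± 0.56 log2. Both mean differences without Ngfr were smaller than their SD.

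**Figure D3:**
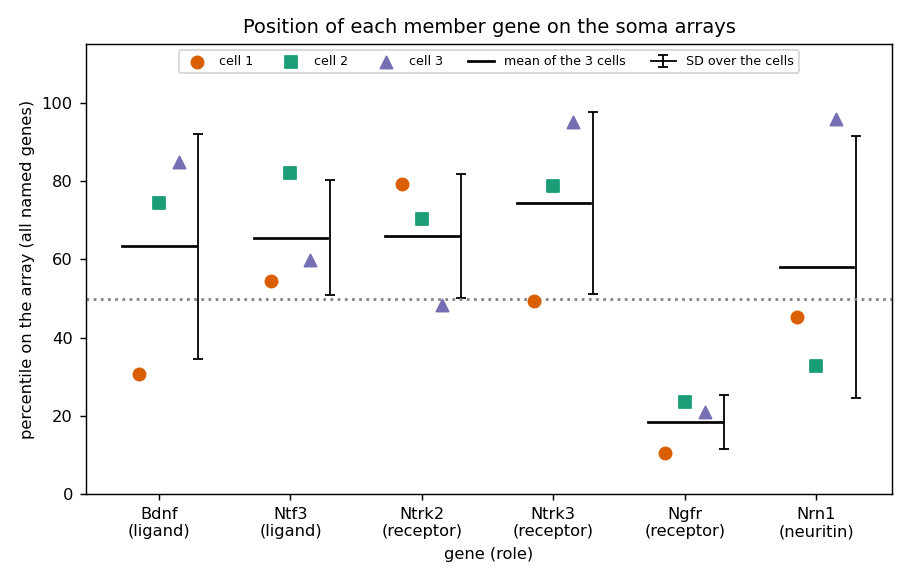
Percentile of each member gene among all named genes of an array (vertical axis) by cell (circles for cell 1, squares for cell 2, triangles for cell 3), with the mean as a line, its SD over the cells as a bar and the 50th percentile dotted. Ngfr lay lowest in every cell, and the other members overlapped.

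Each ligand was also compared with its preferred receptor. The difference of Bdnf minus Ntrk2 was -48.7 percentile points in cell 1, 4.20 in cell 2 and 36.5 in cell 3. As medians of their probe sets, the members of this pair differed between cells in opposite directions, with Bdnf at 30.7, 74.5 and 84.9 and Ntrk2 at 79.3, 70.3 and 48.4. Between cells 1 and 2 this depends on the probe set. Ntrk2 probe sets 1368972_at and 1383135_at were higher in cell 2, by 0.92 and 1.51 log2 after quantile normalisation, as Bdnf was. Ntf3 lay above Ntrk3 by 5.27 and 3.32 points in cells 1 and 2, and its difference to Ntrk3 was -35.1 points in cell 3. Bdnf lay below Ntrk3 in every cell, by a difference of -11.1 ± 7.17 points (SD, n = 3 cells), when Bdnf was the median of its probe sets. The brighter Bdnf probe set 1368677_at (7.84, 9.71 and 10.52 log2) lay above the Ntrk3 probe set (7.25, 8.47 and 10.42 log2) in every cell, so the order of this pair depends on the probe set. With medians, both ligands lay above Ngfr in every cell, Bdnf by 44.9 ± 22.5 and Ntf3 by 47.1 ± 10.2 percentile points. The dimmer Bdnf probe set 1368678_at (5.35, 6.77 and 7.38 log2) was below the Ngfr probe set (5.60, 6.20 and 6.00 log2) in cell 1.

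Over the quantile-normalised log2 values of the 3 cells, the genes nearest to each member by Euclidean distance were sought. Nearest to Bdnf were Tbc1d22al at a distance of 0.15 and Comtd1 at 0.20, and nearest to Ntf3 were Mrap2 at 0.09 and Ccdc88c at 0.11. Aaas at 0.07 and Fgf14 at 0.16 lay nearest to Ntrk2, and Mpzl1 at 0.27 and Dctn5 at 0.37 to Ntrk3. Cp at 0.04 and Ccno at 0.08 lay nearest to Ngfr, and Lrch3 at 0.17 and Polr2g at 0.45 to Nrn1. With 3 values per gene and 14218 genes such neighbours are found for any gene.

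The rest of the neurotrophin system was measured through 110 of 133 listed genes. Their median percentile was 51.0, 52.1 and 54.8 in cells 1, 2 and 3, or 52.6 ± 1.97 (SD, n = 3 cells), against 50.03 for all named genes by construction. Above background were 6, 3 and 11 of the 110 genes in cells 1, 2 and 3, against 7.64%, 4.52% and 10.5% of all genes. The pathway as a whole thus read close to the array average. The 6 members had medians of 47.3, 72.4 and 72.4, and the small number of genes limits what this says.

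Among the other ligands and receptors, Ntf4, the gene of neurotrophin-4, lay at 60.4, 38.6 and 53.8. Of 9 further receptors and co-receptors 1, 0 and 1 passed background in cells 1, 2 and 3, against 7.64%, 4.52% and 10.5% of all genes. Sort1, the gene of sortilin, which binds neurotrophin precursors together with p75, lay at 93.5, 31.5 and 23.4 and passed in cell 1. Its relative Sorcs2 lay at 52.5, 67.3 and 92.9 and passed in cell 3, and Sorcs1 lay at 62.3, 4.97 and 1.45. Kidins220, a scaffold that binds Trk receptors, lay at 56.5, 64.0 and 77.5.

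Genes that process and release neurotrophins held the highest readings of the pathway. Cpe, which encodes carboxypeptidase E of the regulated secretory route, lay at 97.7, 99.3 and 99.9 and was the 1 pathway gene above background in every cell, against 1.91% of all genes. Scg2, a granin of dense-core vesicles, lay at 92.4, 97.7 and 98.5. The precursor convertase Furin lay at 41.9, 28.4 and 71.9, and Plat, the tissue plasminogen activator that starts the extracellular cutting of precursors, at 69.0, 4.42 and 3.76. Of the 12 genes measured in this list, 10 passed background in no cell. The 2 that passed in at least 1 cell stand against 15.9% of all genes, a similar share.

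Signalling genes below the receptors were spread over the whole range. The 11 genes of the PI3 kinase arm had medians of 64.6, 72.0 and 70.3, with the kinase Akt2 (82.2, 89.4 and 86.8) at the top and Rps6kb1, an S6 kinase (42.9, 15.7 and 12.4), at the bottom, and 1 gene passed background in any cell. The 10 genes of the MAP kinase arm had medians of 43.6, 49.1 and 47.4, with Mapk7 (60.4, 94.2 and 88.1) and Rps6ka3 (38.5, 0.53 and 12.1) at the ends, and 0 passed. Of all genes 15.9% passed background in at least 1 cell, so with so few genes neither count is a contrast. The 8 genes of the phospholipase C arm had medians of 53.9, 52.7 and 55.9. There Camk2g, a calcium/calmodulin kinase subunit (96.5, 94.7 and 95.7), and Plcg1, the phospholipase that Trk receptors recruit (63.5, 93.3 and 94.95), read high, and Plcg2 (7.41, 49.0 and 14.0) low. Among 20 Trk adaptors, the docking protein Gab1 led (87.2, 97.6 and 96.4) and Frs3 closed the list (4.70, 36.1 and 6.25).

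Effectors of p75 included members that read high although Ngfr did not. Bex1 (93.0, 93.3 and 96.7) led the 14 genes measured, Maged1 (78.4, 84.9 and 94.2) and Bex3 (81.3, 83.6 and 84.0) followed, all of them binding partners of p75, and the kinase Mapk9 came last (56.4, 9.55 and 17.3). The list passed background with 1, 0 and 2 genes, against 7.64%, 4.52% and 10.5% of all genes in cells 1, 2 and 3. Regulators of the Bdnf gene had medians of 43.6, 41.0 and 54.5 (13 genes), from Usf1 down to Carf (4.97, 0.38 and 18.9), a calcium-responsive factor of a Bdnf promoter. In any cell 0 of them were above background, against 15.9% of all genes. Genes that neurotrophins induce had medians of 57.3, 52.3 and 70.3 (11 genes), from Egr1 (83.6, 82.0 and 92.9) to Egr2 (33.1, 27.7 and 58.0). Egr1 and the phosphatase Dusp6 (42.4, 61.4 and 92.0) passed background in cell 3, where 10.5% of all genes did. Vgf, a secreted peptide precursor that BDNF induces, lay at 70.0, 81.3 and 80.5, and Arc at 78.3, 52.3 and 58.2.

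**Figure D4:**
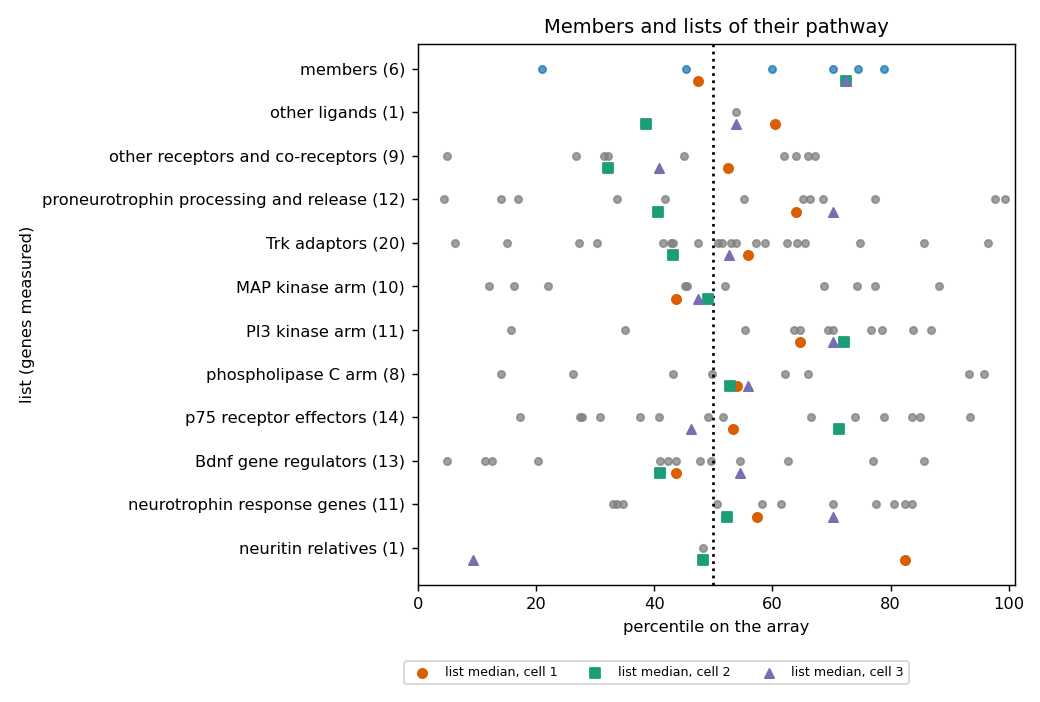
Percentile on the array (horizontal axis) of the member genes (blue dots) and of each pathway list (grey dots), as the median of each gene over the cells, with the list median of each cell below (circles for cell 1, squares for cell 2, triangles for cell 3); brackets give the genes measured. Most lists straddled the 50th percentile, and Cpe and Scg2 lay at the upper end.

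Other growth factor systems gave a scale for these readings. Their 37 measured genes had medians of 55.9, 58.1 and 49.5 in cells 1, 2 and 3. Of these, 2 passed background in any cell, against 15.9% of all genes. Fgf1 (49.1, 95.1 and 91.9) and Pdgfa (72.0, 87.5 and 94.7) led this list, both lowest in cell 1 as Bdnf, Ntf3, Ntrk3 and Ngfr were. The list had no common order. After quantile normalisation 10 of the 37 genes were highest in cell 1, 16 in cell 2 and 11 in cell 3. The shares of all named genes were 31.6%, 31.1% and 37.4%. Of the 6 members 3, Bdnf, Ntrk3 and Nrn1, had their highest value in cell 3, against 37.4% of all named genes.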

How the data were processed

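Per the labels, total RNA of single somata passed through amplification, with a last step of 14 h, and 5 µg of amplified RNA were labelled for each array. The authors deposited 1 log2 value per probe set and named RMA 2.0. Their methods describe an upper-decile summary, median centring and scaling of every array, and the centring is absent from these log2 values, whose array medians were 7.23, 7.16 and 7.09. A genome build was not given in the sources used here.

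Of 31099 probe sets, 20832 carried 1 symbol in the platform annotation, 436 several and 9831 none. Symbols were checked by gene number against RefSeq (GRCr8), which changed 0. A gene took the median of its probe sets. Percentiles were mid-ranks among 14218 genes of an array. Background was the 95th percentile of 119 silent genes. Differences between cells used quantile-normalised log2 values, and steps were tested on simulated data (Python 3.11.15, numpy 2.4.6, pandas 2.3.3, scipy 1.17.1). The members and gene lists were chosen with earlier results of these data known. Named genes were all members, the ends of each pathway list, preset relatives, markers in the top 5% of every cell and the 2 nearest genes of each member. Genes named beyond that rule were chosen after their values were seen. Alternatives were other probe set summaries, backgrounds and scalings, and leaving out each cell. With 1 group no test was made. The number of arrays limits the precision.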

Additional observations from a re-analysis of the deposited data

How the results depend on the processing

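The ligand minus receptor difference of 11.5 percentile points lay between 6.89 and 19.1 when each cell was left out and between 11.1 and 22.7 with other probe set choices, and it turned to -5.76 without Ngfr. In log2 it lay between 0.14 and 0.64 when each cell was left out, reached 0.99 without probe sets that can match several transcripts, where Ntrk3 has none left, and was -0.39 without Ngfr, a setting chosen after seeing the data. The mean of 1.33 member probe sets above background per cell was 2.33 with receptor genes alone as background, a line that 11.3%, 20.02% and 15.6% of all single-symbol probe sets passed in cells 1, 2 and 3, and lay between 0.50 and 2 when each cell was left out, lowest without cell 3. The pathway median of 52.6 was 57.7 when a gene took its brightest probe set, and 49.6 among the 2265 genes above background in at least 1 cell, where 14 pathway genes remain. The median SD of the members, 0.97 log2, lay between 0.67 and 1.45 over all settings. All 35 alternative values of the mean percentile of a member gene stayed within 1 SD of the main value. Leaving out 1 of 3 cells cannot move a mean by 1 SD, so those values could not have left this range. A gene with 1 probe set can change with the probe set summary only through the ranks of other genes. The count is therefore no evidence of stability. The cause of these shifts was not tested. No paired analysis was possible because there is 1 group.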
